A study of Mus musculus with 22 samples.

Results

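The circadian clock genes described here are Arntl, Clock, Per1, Per2, Per3, Cry1, Cry2, Nr1d1, Nr1d2 and Dbp, chosen by name as the core of the molecular clock and its best known output. They are 10 of the 23420 gene symbols in the counts, and all 10 passed the filter on low counts, as did 14458 genes in all. RNA was sequenced from inguinal white adipose tissue (IWAT, which is also the mammary fat pad) of 11 wildtype female C57Bl/6 mice. The 5 lean mice had eaten regular chow and the 6 obese mice a high fat diet (HFD) for 16 weeks. In every mouse, the left pad had received cells of E0771, a breast cancer line of C57Bl/6 origin, in PBS and Matrigel, and the right pad PBS and Matrigel without cells. The left pad is called tumor-associated IWAT and the right pad control IWAT, and both were taken 2 weeks after the injection, so that every control pad also came from a tumor-bearing mouse. This gave 5 lean control, 5 lean tumor-associated, 6 obese control and 6 obese tumor-associated libraries.

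In the clock, the activators BMAL1 (gene Arntl) and CLOCK bind as a pair to E-box sequences and switch on the Per and Cry genes, whose proteins return to the nucleus and repress that pair. The same activators switch on Nr1d1 and Nr1d2, which encode the nuclear receptors REV-ERB alpha and beta that repress Arntl, and Dbp, which encodes a transcription factor that binds D-box sequences and peaks in antiphase to Arntl. In fat, as in other tissues, the levels of most of these mRNAs rise and fall over the day, Clock being the flattest of them in many tissues, and feeding rhythm and glucocorticoids help set their phase. The mice lived in alternating light and darkness, and the time of day at which the pads were taken is not given in the sources used here. If that time differed between the diets, diet and time cannot be told apart. Both pads of a mouse came from the same animal, and no interval between them is given.

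E-boxes and D-boxes are the sequences through which the clock proteins act on each other's genes, so the start regions of the members were searched for them. RefSeq windows on the build GRCm38.p6, which run from 250 bases before to 50 bases after a transcription start, were at hand for 9 of the 10 members in 13 windows, and not for Per2. The E-box was spelled CACGTG, the D-box TTATGTAA or TTACGTAA, and the site bound by REV-ERB and ROR receptors TAGGTCA, each on both strands. None of these spellings overlapped another in the members' windows. A match was found in 4 members: 2 D-boxes in Per3, an E-box each in Per1 and Cry1, and a TAGGTCA in Arntl. Over all 32851 windows of this length, the shares with a match were 7.15% for the E-box, 1.06% for the D-box and 2.61% for TAGGTCA. The letters show where these matches lie, with the match in capitals. The first 3 sequences are the 250 bases before the start and the last holds 30 bases after it, each read 5′ to 3′ along the gene's strand.
Per3, chr4:151044666-151044915, minus strand: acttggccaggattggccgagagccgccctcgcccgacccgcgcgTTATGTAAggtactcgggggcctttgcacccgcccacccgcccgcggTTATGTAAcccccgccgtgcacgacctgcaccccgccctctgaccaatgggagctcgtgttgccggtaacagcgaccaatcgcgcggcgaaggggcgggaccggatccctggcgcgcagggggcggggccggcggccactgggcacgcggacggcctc
Per1, chr11:69098699-69098948, plus strand: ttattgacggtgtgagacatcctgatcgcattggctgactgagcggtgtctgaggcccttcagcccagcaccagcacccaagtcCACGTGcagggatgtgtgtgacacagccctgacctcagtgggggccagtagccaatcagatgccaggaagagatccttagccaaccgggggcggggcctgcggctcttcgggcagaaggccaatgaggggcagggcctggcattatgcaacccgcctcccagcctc
Cry1, chr10:85185055-85185304, minus strand: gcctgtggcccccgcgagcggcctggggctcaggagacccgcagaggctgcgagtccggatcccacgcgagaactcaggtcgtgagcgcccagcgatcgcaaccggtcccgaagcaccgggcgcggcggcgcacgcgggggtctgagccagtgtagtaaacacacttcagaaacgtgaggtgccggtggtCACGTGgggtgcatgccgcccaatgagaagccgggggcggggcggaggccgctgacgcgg
Arntl, chr7:113207530-113207559, plus strand: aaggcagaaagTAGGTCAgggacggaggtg
The D-boxes of Per3 began 205 and 158 bases before its start, the E-box of Per1 began 166 bases before its first start, and that of Cry1 60 bases before its start. The TAGGTCA of Arntl began at base 31 of the transcript from its second start. A match is a string of letters, and binding was not measured.

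The libraries held 5759775 to 8598108 reads counted on genes (median 6953881.5). Levels are given as CPM, which are read counts scaled to a common library total with TMM factors. A change was called where edgeR's quasi-likelihood test, adjusted over 14458 genes by Benjamini and Hochberg, gave p under 0.05, and fold changes are on the log2 scale with their standard error (SE). The 8 adipocyte markers (among them Adipoq and Plin1) were present in every group, with summed levels of 8950 to 11800 CPM in lean control and 12300 to 22200 CPM in obese control IWAT. In lean tumor-associated IWAT they summed to 5700 to 8910 CPM and in obese tumor-associated IWAT to 1720 to 10700 CPM. The obese tumor-associated libraries of mice 4, 2 and 0 stood apart by 10 germline and embryonic genes. These genes were chosen in an earlier analysis of these data after values were seen, so that their calls are not a test. They summed to 999.7, 509.3 and 441.1 CPM in those libraries and to at most 171.5 CPM in any other library. Leaving out both pads of lean mouse 2 lowered the number of called genes in lean mice from 605 to 119. Single libraries moved this number as well. It was 183 without the tumor-associated pad of lean mouse 2, 228 without that of lean mouse 0 and 952 without that of obese mouse 4.

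Compared per kilobase of exon in GENCODE M21, the receptor genes Nr1d1 and Nr1d2 had the highest levels in lean control IWAT, at 21.2 and 17.8 CPM per kilobase. Clock and Per1 followed at 15.6 and 14.5, Cry2 was at 9.59, and Per3, Arntl, Per2, Cry1 and Dbp lay between 5.77 and 3.30 CPM per kilobase. In obese control IWAT, Nr1d2 was first at 24.0 CPM per kilobase, ahead of Clock at 14.9, Per1 at 14.7 and Nr1d1 at 14.3. Cry1 and Dbp had the fewest counts, 61 to 136 and 28 to 147 per library.

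**Figure D1:**
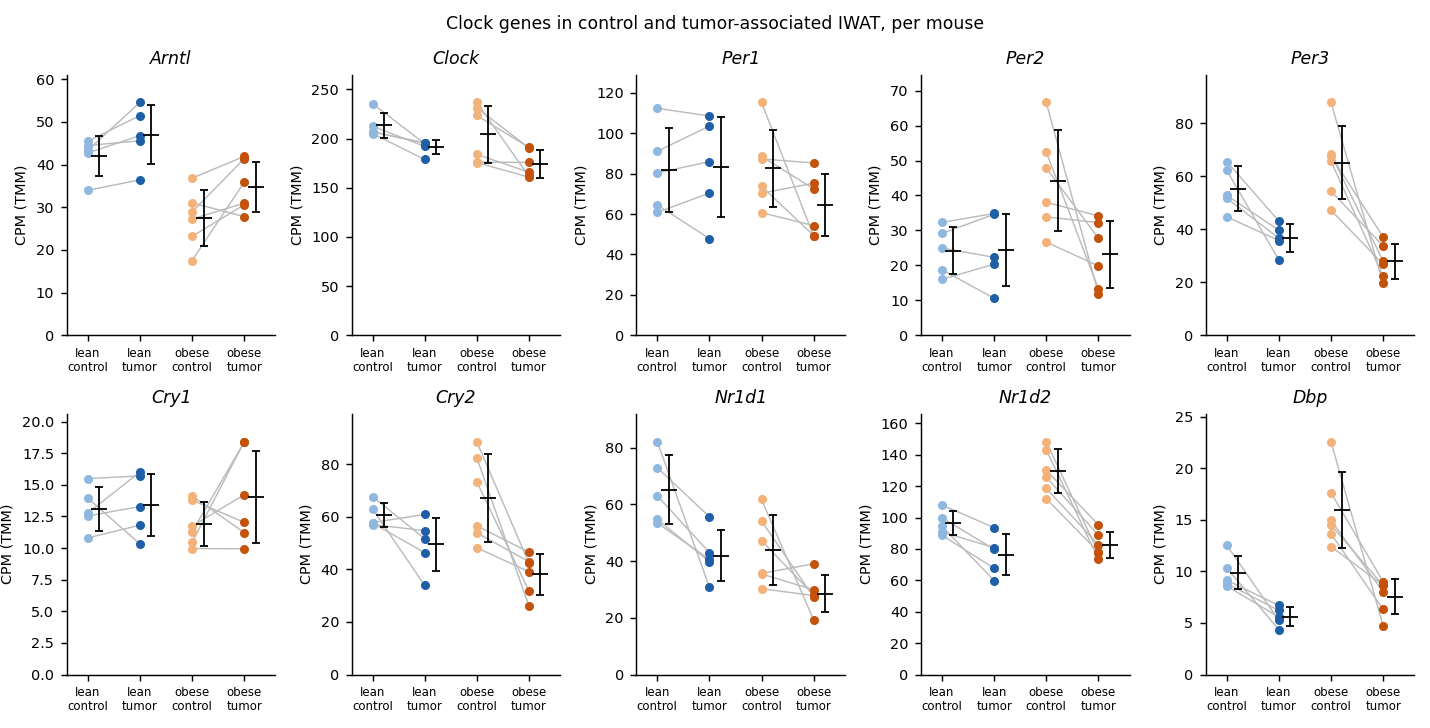
CPM (TMM scaled, linear axes from 0) of each clock gene in the 4 groups, a point per library, grey lines joining the control and tumor-associated pad of a mouse, and a black bar for the mean with its SD (n = 5 lean, 6 obese). Per3, Cry2, Nr1d2 and Dbp lay lower in every obese tumor-associated pad than in any obese control pad, and Clock varied least.

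The first question was whether the clock genes differed between the tumor-associated and the control pad of lean mice. Dbp, the D-box factor, was lower in all 5 lean mice and was the 1 of 10 members called. Over all genes, 4.18% were called, and 0.913% were called lower. Clock, Per3, Nr1d1 and Nr1d2 were also lower in the tumor-associated pad of all 5 mice, without passing edgeR's test over all genes.

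Dbp had 8.83, 10.3, 8.58, 9.15 and 12.5 CPM in the control pads of lean mice 0, 2, 3, 6 and 9. In their tumor-associated pads it had 6.21, 4.35, 5.57, 6.69 and 5.25 CPM. The lowest control pad lay above the highest tumor-associated pad, and the means were 9.88 ± 1.63 and 5.62 ± 0.901 CPM (SD, n = 5). Dbp fell by 0.81 on the log2 scale (SE 0.19, edgeR adjusted p = 0.0219). The call was lost with the mouse as a block (edgeR adjusted p = 0.0738), without the control pad of mouse 9 (edgeR adjusted p = 0.0513), without the tumor-associated pad of mouse 2 (edgeR adjusted p = 0.0898) and without both pads of mouse 2 (edgeR adjusted p = 0.16). Its exons overlap those of Sphk2 on the other strand over 539 bases, 18.0% of the exonic bases of Dbp. Sphk2 did not pass the test in lean mice (log2 fold change 0.02, SE 0.10, edgeR adjusted p = 0.989). The strand setting of the counting is not given in the sources used here.

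Per3, a period gene whose loss leaves a milder clock phenotype than that of Per1 or Per2, had 52.8, 62.3, 51.8, 44.7 and 65.6 CPM in lean control pads in the same order of mice. Its tumor-associated pads had 39.7, 28.4, 36.7, 35.8 and 43.1 CPM. These ranges did not overlap, and the log2 fold change was -0.59 (SE 0.17, edgeR adjusted p = 0.0587). DESeq2 gave an adjusted p of 0.0169, and without both pads of lean mouse 2 edgeR gave 0.339.

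Nr1d1, which encodes REV-ERB alpha, had 53.4, 82.0, 54.7, 63.0 and 72.9 CPM in lean control and 40.6, 30.8, 39.8, 43.0 and 55.6 CPM in lean tumor-associated pads. The highest tumor-associated value lay between the control values, and the log2 fold change was -0.63 (SE 0.20, edgeR adjusted p = 0.0842). Its paralog Nr1d2 had 99.9, 94.5, 90.8, 88.7 and 108.0 CPM in control and 79.8, 59.8, 80.8, 67.7 and 93.6 CPM in tumor-associated pads (log2 fold change -0.34, SE 0.11, edgeR adjusted p = 0.095). Both groups overlapped for Nr1d2 through the tumor-associated pad of mouse 9. DESeq2 called Nr1d1 and Nr1d2 lower (DESeq2 adjusted p = 0.033 and 0.0316). Without both pads of lean mouse 2, edgeR gave them adjusted p of 0.473 and 0.351. Clock, in contrast, spanned only 205.2 to 235.5 CPM in control and 178.8 to 195.7 CPM in tumor-associated pads, which did not overlap (log2 fold change -0.16, SE 0.09, edgeR adjusted p = 0.44). The groups of 3 of the 10 members, Clock, Per3 and Dbp, thus had separate CPM ranges, against 8.36% of all genes tested.

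The activator gene Arntl was higher in the tumor-associated pad of all 5 lean mice, by 0.04 to 0.33 log2 units, with a log2 fold change of 0.16 (SE 0.16, edgeR adjusted p = 0.787). Per1, Per2 and Cry1 had log2 fold changes of 0.01 to 0.04, with 95% intervals of -0.44 to 0.49, -0.68 to 0.70 and -0.33 to 0.40. All 3 intervals left out a fall the size of that of Dbp. Cry2 was lower in 4 of 5 mice (log2 fold change -0.29, SE 0.18, edgeR adjusted p = 0.482). Of the 8 adipocyte markers 0 were called in lean mice by edgeR and 1 had an unadjusted p under 0.05, with summed medians of 9700 CPM in control and 6490 CPM in tumor-associated pads. Of the 8 macrophage markers 5 were called higher, with summed medians of 1030 and 2360 CPM. The part of these cells in the values of Dbp and Per3 was not tested.

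The same question was asked in obese mice. There 7 of 10 members were called lower in tumor-associated IWAT, namely Per2, Per3, Cry2, Nr1d1, Nr1d2, Dbp and Clock, and none was called higher. In this comparison 54.5% of all genes were called and 27.7% were called lower. The median log2 fold change of the members was -0.64, beside -0.02 over all genes tested. The ranges of 4 members did not overlap between the groups, against 19.6% of all genes.

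Per3 had the largest fall, by 1.22 on the log2 scale (SE 0.16, edgeR adjusted p = 1.35e-05). In obese control pads it ranged from 47.2 to 87.9 CPM with a median of 66.8, and in tumor-associated pads from 19.6 to 37.2 CPM with a median of 27.4. Every control pad lay above every tumor-associated pad, and within mice the difference ran from -0.69 in mouse 1 to -2.15 in mouse 4. Per3 is the member whose start region holds the pair of D-boxes printed above. Whether they have a part in this fall was not tested.

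Dbp fell by 1.07 on the log2 scale (SE 0.17, edgeR adjusted p = 7.73e-05). Its control pads spanned 12.4 to 22.6 CPM with a median of 14.7, and its tumor-associated pads 4.74 to 9.00 CPM with a median of 8.33. The groups did not overlap, and the difference within mice ran from -0.50 in mouse 0 to -2.19 in mouse 4. Sphk2, which shares exonic bases with it, rose by 0.36 in the same comparison (SE 0.09, edgeR adjusted p = 0.00181).

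The other PER and CRY genes differed among themselves. Cry2, a repressor of the activator pair, fell by 0.81 on the log2 scale (SE 0.16, edgeR adjusted p = 4.89e-04), from 48.2 to 88.5 CPM with a median of 64.9 in control pads to 26.1 to 46.6 CPM with a median of 40.7 in tumor-associated pads. The ranges did not overlap. The antisense transcript D930015M05Rik overlaps 295 bases, or 4.67%, of the exonic bases of Cry2. Its paralog Cry1 was higher in the tumor-associated pad of 3 of 6 mice, with medians of 11.5 CPM in control and 13.1 CPM in tumor-associated pads (log2 fold change 0.24, SE 0.16, edgeR adjusted p = 0.217).

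Per2, which carries the main repressing role together with Per1, fell by 0.93 on the log2 scale (SE 0.30, edgeR adjusted p = 0.0138). Control pads ranged from 26.6 to 66.6 CPM with a median of 43.0, and tumor-associated pads from 11.9 to 34.1 CPM with a median of 23.8, so that the ranges overlapped. All 6 mice were lower, but unevenly, by 2.46 in mouse 4 and 1.95 in mouse 0 against 0.07 in mouse 3 and 0.16 in mouse 1. Per1, which also responds to light and to glucocorticoids, ranged from 60.7 to 115.3 CPM in control and from 49.1 to 85.4 CPM in tumor-associated pads, lower in 5 of 6 mice (log2 fold change -0.36, SE 0.20, edgeR adjusted p = 0.139). Its 95% interval was -0.79 to 0.06.

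Nr1d2 fell by 0.65 on the log2 scale (SE 0.10, edgeR adjusted p = 4.94e-05). Its control pads ranged from 112.0 to 148.3 CPM with a median of 128.0, and its tumor-associated pads from 73.5 to 95.4 CPM with a median of 80.4, without overlap. The fall was even across mice, between 0.45 and 0.96. Nr1d1 fell by nearly the same amount, 0.62 (SE 0.19, edgeR adjusted p = 0.00803), but less evenly, from 30.2 to 61.7 CPM with a median of 41.4 in control to 19.2 to 39.1 CPM with a median of 28.0 in tumor-associated pads, with overlap. It was higher by 0.13 in the tumor-associated pad of mouse 1 and lower by 1.67 in that of mouse 4. Nr1d1 shares 263 exonic bases, 8.55% of its own, with Thra, the thyroid hormone receptor gene on the other strand. Thra fell by 0.68 in the same comparison (SE 0.12, edgeR adjusted p = 2.19e-04), and its part in the counts of Nr1d1 was not tested.

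Among the activators, Clock fell by 0.23 on the log2 scale (SE 0.08, edgeR adjusted p = 0.024), the smallest of the 7 called changes, from 175.7 to 236.8 CPM in control to 160.8 to 191.0 CPM in tumor-associated pads. It was lower in all 6 mice, by 0.004 to 0.55, and its ranges overlapped. The call was lost without the control pad of mouse 0, 4 or 8 or the tumor-associated pad of mouse 0 or 3, with adjusted p of 0.0511 to 0.0679 in edgeR, and in a fit to the obese libraries alone (edgeR adjusted p = 0.0974). Arntl ranged from 17.5 to 36.8 CPM in control and from 27.8 to 41.9 CPM in tumor-associated pads, higher in 5 of 6 mice, with a log2 fold change of 0.34 (SE 0.15, edgeR adjusted p = 0.0602). With the mouse as a block it was called higher (log2 fold change 0.36, edgeR adjusted p = 0.0309), as it was without the control pad of mouse 8 or the tumor-associated pad of mouse 1 (edgeR adjusted p = 0.0175 and 0.0326).

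**Figure D2:**
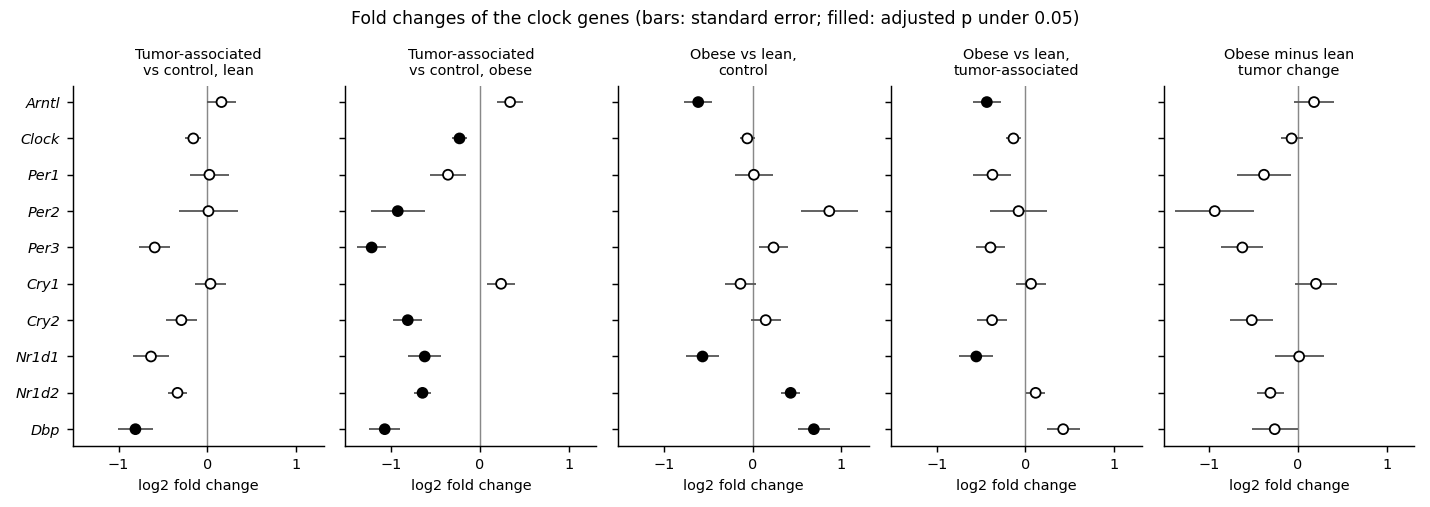
Log2 fold changes of the 10 clock genes in the 4 group comparisons and in the difference between the tumor changes, with standard errors as bars and filled points for an edgeR adjusted p under 0.05. In obese mice 7 members were called lower in tumor-associated IWAT, and in the right-hand panel none was called.

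Markers of several cell types also differed between these pads. In obese mice all 8 adipocyte markers were called lower in tumor-associated IWAT, their summed medians being 17500 CPM in control and 7340 CPM in tumor-associated pads. Of the 8 macrophage markers 6 were called higher, with medians of 1370 and 3990 CPM. The 10 germline and embryonic genes had medians of 11.6 and 306 CPM, but were chosen after values were seen, so that their rise is not a separate result. Of 5 luminal epithelium and 5 endothelium markers, 4 each were called lower. Of the 6 fibroblast markers 2 were called higher and 2 lower. In such whole-tissue samples, fewer cells of a type and less RNA per cell cannot be told apart. Without the tumor-associated pads of mice 0, 2 and 4, Per3, Dbp, Nr1d2 and Cry2 were still called lower, by 1.15, 0.90, 0.61 and 0.70 on the log2 scale, with edgeR adjusted p of 1.8e-04, 0.00179, 0.00154 and 0.00932. Per2, Nr1d1 and Clock then had edgeR adjusted p of 0.161, 0.1 and 0.0983. The part of cell composition in any of these values was not tested.

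**Figure D3:**
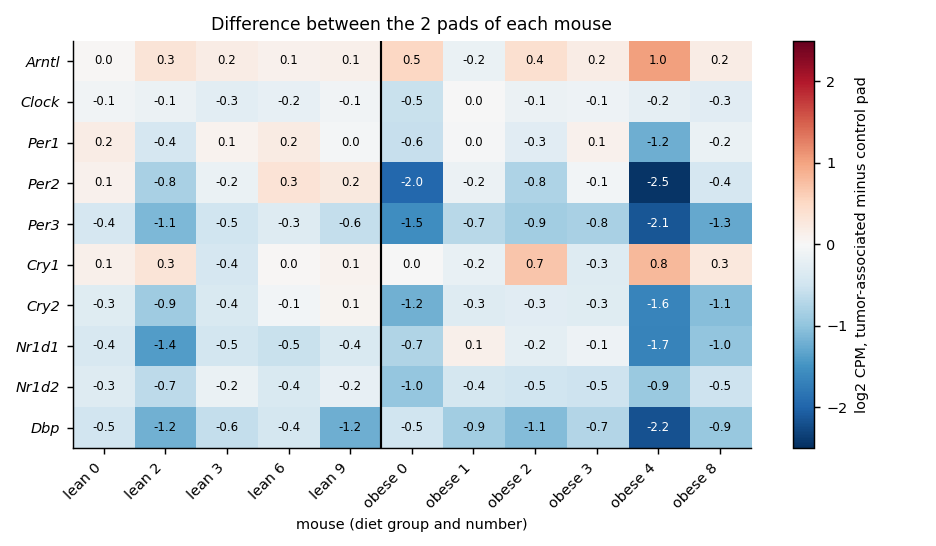
Difference of log2 CPM between the tumor-associated and the control pad, a column per mouse and a row per clock gene, blue where the tumor-associated pad was lower. Clock, Per3, Nr1d2 and Dbp were lower in all 11 mice, Clock by only 0.004 in obese mouse 1. Obese mouse 4 had the largest differences of Arntl, Per1, Per2, Per3, Cry1, Cry2, Nr1d1 and Dbp.

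By mouse, 6 to 8 of the 10 members were lower in the tumor-associated pad of the lean mice and 8 or 9 in that of the obese mice. Of all genes tested, 45.3% to 50.2% were lower in the lean and 48.1% to 53.1% in the obese mice. Clock, Per3, Nr1d2 and Dbp were lower in all 11 mice. Obese mouse 4 was widest at both ends, with the highest obese control pad and the lowest obese tumor-associated pad of Per1 (115.3 and 49.1 CPM), Per3 (87.9 and 19.6 CPM), Per2 (66.6 and 11.9 CPM), Nr1d1 (61.7 and 19.2 CPM) and Dbp (22.6 and 4.74 CPM), and with the lowest control pad of Arntl (17.5 CPM). Its tumor-associated pad had the most germline and embryonic CPM, and its control pad the least of the obese control pads, 5.99 CPM.

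Whether the tumor change itself differed between obese and lean mice was tested as an interaction. None of the 10 members was called, against 4.92% of all genes tested, and DESeq2 also called 0. That share is unstable: the 711 genes called over all genes became 1 without the tumor-associated pad of lean mouse 0 or of obese mouse 0 and 3568 without that of obese mouse 1, and DESeq2 called 2365. Unadjusted p were under 0.05 for 4 members: Per2 (log2 difference of changes -0.94, 95% interval -1.87 to -0.01, edgeR adjusted p = 0.148), Per3 (-0.63, edgeR adjusted p = 0.0828), Cry2 (-0.52, edgeR adjusted p = 0.139) and Nr1d2 (-0.31, edgeR adjusted p = 0.146). The count of 7 called members in obese and 1 in lean mice is therefore not shown to be a difference between the diets. Dbp, at -0.26 with a 95% interval of -0.80 to 0.28, and Nr1d1, at 0.01 with an interval of -0.56 to 0.58, left room for changes of either sign. Without the tumor-associated pad of obese mouse 1, Per3 was called (log2 difference -0.68, edgeR adjusted p = 0.0428).

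The second axis was diet. In control IWAT, 4 of 10 members were called between obese and lean mice, against 17.1% of all genes: Arntl and Nr1d1 were lower in obese mice, and Nr1d2 and Dbp were higher. These values share the control libraries with the tumor comparisons above. Of the adipocyte markers 2 were called higher and 1 lower in obese control IWAT, and of 5 luminal epithelium markers 3 were called lower. The germline and embryonic genes, chosen after values were seen, had summed medians of 0.528 CPM in lean and 11.6 CPM in obese control pads. The skeletal muscle markers reached 2080 CPM in 1 obese control pad, against a median of 23 CPM in that group. The part of these cells in the differences was not tested.

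Arntl had 44.5, 43.4, 45.5, 34.0 and 42.7 CPM in the control pads of lean mice 0, 2, 3, 6 and 9, and 17.5 to 36.8 CPM with a median of 28.1 in those of obese mice. Only lean mouse 6 lay within the obese range. Arntl fell by 0.61 on the log2 scale (SE 0.16, edgeR adjusted p = 0.0104) and was called with each of the 22 libraries left out.

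Dbp, whose mRNA runs opposite to that of Arntl over the day, rose by 0.69 (SE 0.18, edgeR adjusted p = 0.0133), from the 8.58 to 12.5 CPM of lean control pads to 12.4 to 22.6 CPM. The ranges met only at the highest lean pad, of mouse 9, and the lowest obese pad, of mouse 0. Nr1d2 rose by 0.43 (SE 0.10, edgeR adjusted p = 0.00812), and its ranges of 88.7 to 108.0 CPM in lean and 112.0 to 148.3 CPM in obese control pads did not overlap. It was the only member without overlap here, against 13.0% of all genes. Nr1d1 was lower, with 53.4 to 82.0 CPM in lean and 30.2 to 61.7 CPM in obese control pads (log2 fold change -0.57, SE 0.19, edgeR adjusted p = 0.0459). The call of Nr1d1 was lost with 13 of the 22 libraries left out in turn, where edgeR's adjusted p reached 0.124 without the control pad of lean mouse 2. Thra fell by 0.44 in the same comparison (SE 0.13, edgeR adjusted p = 0.0222).

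Per2 was higher in obese control pads without passing the test, with 16.0 to 32.3 CPM in lean and 26.6 to 66.6 CPM in obese mice (log2 fold change 0.86, SE 0.32, edgeR adjusted p = 0.0667). It was called with the control pad of obese mouse 8, the tumor-associated pad of lean mouse 2 or that of obese mouse 4 left out (edgeR adjusted p = 0.0478, 0.046 and 0.0417). DESeq2 called it too (DESeq2 adjusted p = 0.0413). So did edgeR with only the groups compared (adjusted p = 0.0247) and without the tumor-associated pads of obese mice 0, 2 and 4 (adjusted p = 0.0349). The other 25 of 31 alternative fits did not call it. Per1 had 60.9 to 112.4 CPM in lean and 60.7 to 115.3 CPM in obese control pads (log2 fold change 0.01, 95% interval -0.43 to 0.46). Clock had log2 fold changes between diets of -0.06 in control and -0.13 in tumor-associated pads, and the 95% intervals, -0.24 to 0.12 and -0.32 to 0.05, left out changes the size of that of Arntl. Per3, Cry1 and Cry2 had log2 fold changes of 0.23, -0.14 and 0.15 in control pads, with edgeR adjusted p of 0.36, 0.632 and 0.61.

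In tumor-associated IWAT, 2 of 10 members were called between the diets, Arntl and Nr1d1, both lower in obese mice. Over all genes 47.0% were called and 22.4% were called lower. None of the 10 members had separate ranges, while 24.4% of all genes had. In obese mice all 5 luminal epithelium markers were called lower, with summed medians of 791 CPM in lean and 228 CPM in obese pads, as were 3 of 8 adipocyte (1 higher) and 3 of 6 fibroblast markers. All 5 proliferation markers and 3 of 8 macrophage markers were called higher. The germline and embryonic genes, chosen after values were seen, had summed medians of 1.39 CPM in lean and 306 CPM in obese pads. The part of these cells in the differences of Arntl and Nr1d1 was not tested.

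Arntl had 45.6, 54.6, 51.5, 36.4 and 46.8 CPM in lean tumor-associated pads, again lowest in mouse 6, and 27.8 to 41.9 CPM in obese ones. It fell by 0.44 (SE 0.16, edgeR adjusted p = 0.0262). The call was lost without the tumor-associated pad of lean mouse 2 or 3 or of obese mouse 1, 2 or 3, with edgeR adjusted p of 0.0503 to 0.0697. Nr1d1 fell by 0.55 (SE 0.19, edgeR adjusted p = 0.0233), from 30.8 to 55.6 CPM to 19.2 to 39.1 CPM, and the call was lost without the tumor-associated pad of lean mouse 9 or obese mouse 4 (edgeR adjusted p = 0.0864 and 0.0546). Thra fell by 0.91 in the same comparison (SE 0.13, edgeR adjusted p = 3e-05).

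Without the tumor-associated pads of obese mice 0, 2 and 4, neither Arntl nor Nr1d1 was called in tumor-associated IWAT (edgeR adjusted p = 0.0626 and 0.183), while Dbp was called higher, with a log2 fold change of 0.60 (edgeR adjusted p = 0.024). With all libraries the log2 fold change of Dbp was 0.43 (SE 0.19, edgeR adjusted p = 0.0661), so that it was positive between diets in both pads. Per3, at -0.39, and Cry2, at -0.38, had edgeR adjusted p of 0.0586 and 0.0765, and without the tumor-associated pad of lean mouse 2 these were 0.0303 and 0.024, with Per1 at 0.0402.

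The REV-ERB genes, paralogs with overlapping roles as repressors of Arntl, were thus called in opposite directions with diet in control IWAT. The call of Nr1d1 was lost in 15 of 31 alternative fits. The part of Thra, which overlaps Nr1d1, in its values was not tested. The log2 ratio of Nr1d2 to Nr1d1 CPM ran from 0.20 to 0.90 in lean control and from 1.13 to 1.88 in obese control pads. In tumor-associated pads it ran from 0.65 to 1.02 in lean and from 1.28 to 2.00 in obese mice. The ranges of the diets did not overlap in either pad. This ratio was formed after the values were seen and was not tested.

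The log2 ratio of Dbp to Arntl, an output of the activators set against an activator gene, had medians of -2.04 in lean control and -0.97 in obese control pads. In tumor-associated pads the medians were -3.09 in lean and -2.20 in obese mice. It was lowest in lean tumor-associated pads, which reached from -3.56 to -2.39, and highest in obese control pads, from -1.20 to 0.36. It too was formed after the values were seen.

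**Figure D4:**
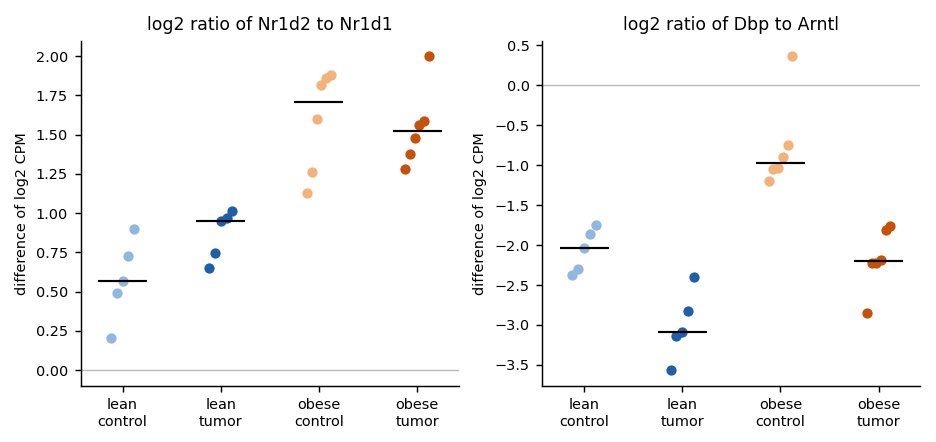
Log2 ratio of Nr1d2 to Nr1d1 and of Dbp to Arntl in each library (difference of log2 CPM, prior count 2), with a line at the median of each group. The ratio of Nr1d2 to Nr1d1 was above 1.1 in every obese library and at most 1.02 in every lean library.

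Within groups, the members varied to different degrees. After removing group means, Per2 had the largest spread of the members, an SD of 0.57 log2 units, and Clock the smallest, an SD of 0.13. With the group differences included, the highest of the 22 libraries was 6.3-fold above the lowest for Per2 and 1.47-fold for Clock. Over all genes tested the median SD was 0.32. Nr1d2 at 0.17 was also below it, and Per1 at 0.38 and Nr1d1 at 0.33 lay above.

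The deviations of the period genes ran together. Over the 22 libraries, Pearson's r of these deviations was 0.93 for Per1 and Per2, 0.86 in the 11 control and 0.97 in the 11 tumor-associated libraries. Nr1d2 followed them, at 0.82 with Per1 and 0.80 with Per2. Per3, Cry2 and Nr1d1 had r of 0.79 to 0.81 between each pair, though Per3 and Cry2 had 0.66 in control libraries. These genes were not separate from the others: in tumor-associated libraries r was 0.86 for Per2 and Per3 and 0.80 for Per2 and Cry2. Arntl had negative r with all members except Clock over the 22 libraries, from -0.50 with Per2 to -0.05 with Cry1, while in control libraries it had 0.10 with Cry1 and 0.04 with Cry2. The libraries share mice, so that these r describe the data and carry no test.

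Between the pads of a mouse the deviations were not shared in the same way. Per1 lay on the same side of its group mean in both pads of 9 of 11 mice and Arntl in 7, with r over mice of 0.45 and 0.35. Dbp lay on the same side in 2 of 11 mice (r = -0.59), and Cry1 and Cry2 in 3 (r = -0.07 and -0.415). Per3 and Nr1d1 did so in 5 (r = -0.34 and -0.50), and Clock, Per2 and Nr1d2 in 6 (r = 0.42, -0.001 and 0.19).

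Among all 14458 genes, the deviations most like those of Arntl were those of Evi2a, Vimp, S100a4, Cubn and Arl11, with r of 0.74 to 0.78 over 22 libraries, and the least like were those of Fut9, Plek2 and Slc35f3, with r of -0.84 to -0.80. For Dbp they were B3galt1, Ppargc1b, Dnajc6, Rbm47 and Fam122b, with r of 0.77 to 0.81, and at the other end Dph2, Pias4 and Polr2h, with r of -0.84 to -0.79. No other member was among these genes. They were picked as the extremes of r over all 14458 genes, in libraries that share mice, and their r carry no test.

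Of 24 further clock genes, taken as a list of partners, orphan receptors, repressors, regulators of PER and CRY stability and rhythmic outputs, all passed the filter on low counts. In lean mice 1 was called higher in tumor-associated IWAT and 1 lower, and these 2 of 24 stand beside 4.18% of all genes called. In obese mice 7 were called higher and 7 lower, and these 14 of 24 stand beside 54.5% of all genes called. The median log2 fold change of the list was 0.002 there, beside -0.02 over all genes. Between the diets, 2 were called higher and 5 lower in obese control IWAT, where 17.1% of all genes were called. In obese tumor-associated IWAT 4 were higher and 7 lower, and these 11 of 24 stand beside 47.0%. The shares of the list in both comparisons that involve obese tumor-associated IWAT were thus near those over all genes.

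The relatives of Dbp fell with it in obese mice, and Tef was called lower in lean mice too. Tef, which encodes a D-box factor of the same family, was lower in tumor-associated IWAT by 0.54 in lean (SE 0.13, edgeR adjusted p = 0.021) and by 0.92 in obese mice (SE 0.12, edgeR adjusted p = 1.03e-05), without overlap of the groups in either. In control IWAT it was higher in obese mice, by 0.45 (SE 0.12, edgeR adjusted p = 0.0156), from 77.1 ± 9.01 CPM in the lean pads (SD, n = 5) to 105.4 ± 16.6 CPM (SD, n = 6). Hlf, the remaining gene of that family, fell by 1.53 in obese tumor-associated IWAT (SE 0.36, edgeR adjusted p = 0.00161). In lean mice Hlf was lower in the tumor-associated pad of all 5 mice, without overlap of the groups. It did not pass the test there (log2 fold change -0.58, SE 0.37, edgeR adjusted p = 0.521). In obese mice Nfil3, which encodes a repressor at the same D-box sites, rose in tumor-associated IWAT by 1.01 (SE 0.15, edgeR adjusted p = 3.55e-05). Its means were 10.6 ± 1.95 CPM in obese control and 21.4 ± 2.47 CPM in obese tumor-associated pads (SD, n = 6). It was lower by 0.99 in obese than in lean control IWAT (SE 0.16, edgeR adjusted p = 2.45e-04).

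Npas2, the paralog of Clock that also pairs with BMAL1, was lower with obesity in both pads, by 1.35 in control (SE 0.32, edgeR adjusted p = 0.00595) and 1.49 in tumor-associated IWAT (SE 0.32, edgeR adjusted p = 7.9e-04), without overlap between the diets. Arntl and Npas2 were thus both called lower in obese mice in each pad, while Clock was not.

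Among the other repressors, Bhlhe41 fell with obesity by 1.09 in control and 2.10 in tumor-associated IWAT (edgeR adjusted p = 0.00675 and 1.28e-05), and Bhlhe40 by 0.90 in control IWAT (edgeR adjusted p = 0.00128). In tumor-associated against control IWAT of obese mice, Bhlhe41 fell by 1.17 and Bhlhe40 rose by 0.80 (edgeR adjusted p = 9.01e-04 and 5.81e-04). Ciart, listed under its older symbol Gm129, was called higher with obesity in tumor-associated IWAT, but lay at only 0.18 to 4.97 CPM over all libraries. Timeless, which in mammals also serves DNA replication, rose in tumor-associated IWAT by 0.93 in lean and 1.66 in obese mice (edgeR adjusted p = 0.0499 and 3.03e-05). The 5 proliferation markers were all called higher in obese tumor-associated IWAT as well, and in lean mice 0 were called in edgeR, while all 5 had an unadjusted p under 0.05.

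Btrc, a ligase subunit for PER proteins, fell by 0.26 in obese tumor-associated IWAT (SE 0.08, edgeR adjusted p = 0.00958). The cell cycle kinase gene Wee1, an output of the clock, rose by 0.69 there (SE 0.24, edgeR adjusted p = 0.0197).

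**Figure D5:**
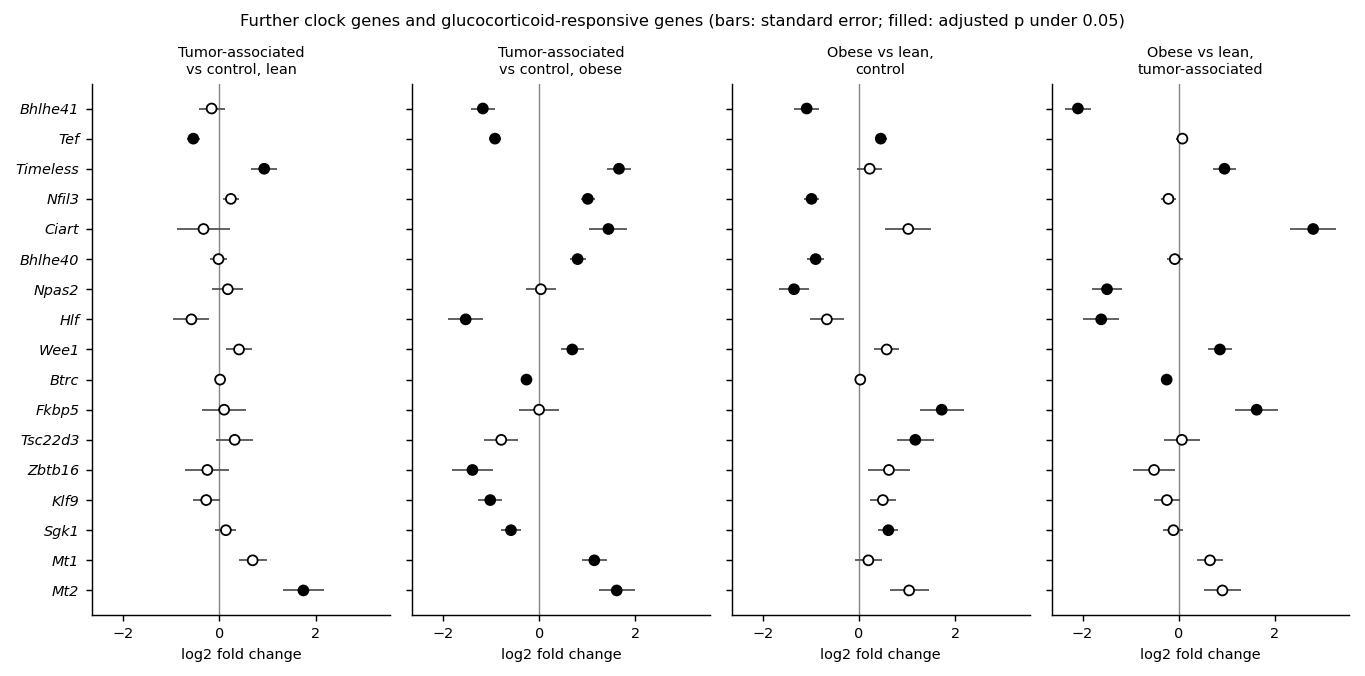
Log2 fold changes of the named further clock genes (Bhlhe41 to Btrc) and of glucocorticoid-responsive genes (Fkbp5 to Mt2) in the 4 group comparisons, with standard errors as bars and filled points for an edgeR adjusted p under 0.05. Tef was called lower in tumor-associated IWAT of both diets, and Npas2 and Bhlhe41 were called lower in obese mice in both pads.

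Per1 and the phase of the clock in fat respond to glucocorticoids, so 7 genes known to respond to these hormones were read beside the members. In obese control IWAT 3 were called higher and none lower, beside 17.1% of all genes called. Fkbp5 rose by 1.72 (SE 0.46, edgeR adjusted p = 0.0135), from 19.4 to 90.4 CPM in lean to 31.1 to 194.1 CPM in obese pads, and Tsc22d3 and Sgk1 by 1.17 and 0.61 (edgeR adjusted p = 0.0391 and 0.0496). Per1 had a log2 fold change of 0.01 in the same comparison. In obese tumor-associated against control IWAT, Klf9, Sgk1 and Zbtb16 fell by 1.02, 0.59 and 1.39, and the metallothionein genes Mt1 and Mt2 rose by 1.14 and 1.61 (edgeR adjusted p of 0.00139 to 0.0172 for all 5), beside 54.5% of all genes called. Mt2 was the only one of the 7 called in lean tumor-associated IWAT, higher by 1.75 (edgeR adjusted p = 0.0225), beside 4.18% of all genes called. Fkbp5 was the only one called between diets in tumor-associated IWAT, higher in obese mice by 1.62 (edgeR adjusted p = 0.0063), beside 47.0% of all genes. The hormone was not measured.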

How the data were processed

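The authors used prinseq to trim reads of ribosome-depleted RNA and STAR 2.4.0f to map them to mm10, and deposited HTSeq counts per gene symbol for 22 libraries, without normalization. The annotation and strand setting are not given in the sources used here. Lines of HTSeq totals (5) were left out. Reads on no gene made up 38.5% to 48.8%.

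Groups and mouse numbers came from the sample labels. All 22 libraries were fitted as 4 groups in edgeR 4.0.16 (R 4.3.3, quasi-likelihood test, TMM, default filter by group, Benjamini-Hochberg over 14458 genes, threshold 0.05), after a test on simulated counts; the study used DESeq2. log2 CPM used a prior count of 2. The smallest chi-square per degree of freedom between libraries of a group was 5.95, so none was a copy. Counting error limits Dbp and Cry1 most.

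Pads of one mouse come from the same animal: deviations correlated at a median of 0.508 in lean (over 0.1 in 5 of 5 mice) and 0.168 in obese mice (4 of 6). Alternatives were DESeq2 1.42.0, upper-quartile and DESeq2 size factors, no filter, at least 10 counts in every library, only the groups compared, the mouse as a block (fixed in edgeR for pads, random in limma 3.58.1 for diets, since each mouse has 1 diet), and each library left out. Left out after seeing the data were both pads of lean mouse 2, and the tumor-associated pads of obese mice 0, 2 and 4.

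The members and lists were chosen with earlier results of these data known. Named were all 10 members, up to 12 clock genes called in at least 2 comparisons (some are not reported here), the glucocorticoid-responsive genes called in any, and the 5 highest and 3 lowest r to Arntl and Dbp. Thra, Sphk2 and D930015M05Rik were named for overlap. Positions came from GENCODE M21 (GRCm38).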

Additional observations from a re-analysis of the deposited data

Results flagged for a closer look

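Within groups of 5 or 6 libraries, 3 of 40 gene and group combinations of the 10 members had a library far from the others by Dixon's test, of which chance flags about 1 in 20. Arntl was lowest in the control pad of lean mouse 6, at 33.97 CPM, where the other lean control pads lay at 42.72 CPM or more. Clock was highest in the control pad of lean mouse 3, at 235.5 CPM, and lowest in the tumor-associated pad of lean mouse 6, at 178.8 CPM. Of the genes read beside the members, the glucocorticoid-responsive Tsc22d3 was higher in the tumor-associated pad of all 5 lean mice and lower in that of all 6 obese mice, by a mean of -0.8813 log2 units in obese and 0.42 in lean mice. The difference between these changes did not pass edgeR's test over all genes (adjusted p = 0.149).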

How the results depend on the processing

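For tumor-associated against control IWAT in lean mice, 1 member was called. The count was 2 with at least 10 counts in every library, 4 in DESeq2, 3 with only the groups compared, 0 with the mouse as a block, 0 without both pads of lean mouse 2 and 3 without the tumor-associated pads of obese mice 0, 2 and 4. Leaving out single libraries gave 0 to 3. It was 0 without the lean control pad of mouse 9 or the lean tumor-associated pad of mouse 2, 2 (Dbp and Per3) without the obese control pad of mouse 1, 3 or 4 or the obese tumor-associated pad of mouse 1 or 2, and 3 without the lean tumor-associated pad of mouse 9 or the obese tumor-associated pad of mouse 4. In obese mice the 7 calls became 4 without the tumor-associated pads of mice 0, 2 and 4, 6 with only the groups compared, where Clock was lost, and 6 to 8 with single libraries left out. Between diets, 4 calls in control IWAT became 3 to 5 without single libraries. The 2 calls in tumor-associated IWAT became 5 with upper-quartile normalization, 4 without both pads of lean mouse 2 and 1 without the tumor-associated pads of obese mice 0, 2 and 4. Single libraries gave 1 to 4 there: 1 without the lean tumor-associated pad of mouse 3 or 9 or the obese tumor-associated pad of mouse 3, and 4 without the lean tumor-associated pad of mouse 2 or the obese control pad of mouse 4. The difference between the tumor changes gave 0 calls throughout, except 1 without the obese tumor-associated pad of mouse 1. The mouse block changed the calls of Dbp in lean and Arntl in obese mice and no other. The causes were not tested. No called log2 fold change reversed under any alternative. At 28 to 147 counts per library, Dbp is the member most limited by depth.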
